A study of Rattus norvegicus with 25 samples.

Results

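The striatal mRNA of 8 genes that neuronal activity regulates was followed in adolescent rats: Npas4, Arc, Homer1, Bdnf, Nptx2, Scg2, Vgf and Ptgs2. A gene was read from every probe set, that is every group of short array probes summed to 1 value, to which the platform annotation gives that symbol and no other. Each of the 8 genes had exactly 1 such probe set, among 14506 genes in all with a probe set of their own. Affymetrix rat gene 1.0st arrays were hybridised with RNA from the striatum of 25 rats, 1 array per rat. All were males of the Lister Hooded strain and were killed at postnatal day (PND) 35 to 42. The 8 Con rats were offspring of dams that ate and drank freely. The 7 Nic rats were offspring of dams that drank a nicotine solution from before mating. The 10 Con-Pf rats were offspring of pair-fed dams, which drank no nicotine and received the amount of food that the Nic dams had eaten. No source used here gives the litter of each rat, and some rats may be littermates, so the p-values measure the spread between these rats. The study's methods list fewer pair-fed dams than the 10 Con-Pf rats, so some of these shared a dam. The treatments were given to dams, while each rat was counted as independent, which can make the p-values too small. For Con-Pf replicates 9 and 10 the sample title says pair-fed and the description only control. They were kept as Con-Pf, the group in which the study's own array tests had them, although the group sizes in 1 passage of its methods would place 2 more arrays in Con. Values with them left out or counted as Con are given as a check of the label where they change a call.

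Activity-regulated genes are transcribed within minutes to hours of synaptic input that raises calcium in a neuron. Some encode transcription factors, such as NPAS4. Others encode proteins that act at the synapse, such as ARC and the short form of HOMER1, or proteins and peptides that are secreted, such as BDNF, neuronal pentraxin 2 and the granins SCG2 and VGF. PTGS2, also called cyclooxygenase-2, makes the precursor of prostaglandins in excitatory neurons. In the striatum these genes are best known for their response to dopamine and glutamate input onto the medium spiny projection neurons.

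The arrays carried a striatal profile. A gene was kept for the tests where its probe set was at or above the median level of all probe sets, and is otherwise counted as not kept. Of 10 marker genes of striatal projection neurons 9 were kept, and their mean log2 level lay between 11.82 and 12.02 on every array. No marker of astrocytes, oligodendrocytes, microglia or endothelium passed the test in any comparison. Markers of cortical and thalamic excitatory neurons varied from rat to rat: only Slc17a7, Cck and Calb2 of 12 such genes were kept, and their mean log2 level ranged from 7.52 to 8.62 in Con, 7.45 to 9.16 in Nic and 7.45 to 8.03 in Con-Pf. Slc17a7, the vesicular glutamate transporter of cortical neurons, had a log2 difference of -0.63 for Con-Pf against Con and -1.18 against Nic, neither passing the test. The choroid plexus marker Ttr was highest on Con 2, at 13.48, and Con-Pf 4, at 13.69. Con 3 and Con 5 lay farthest out on the first principal component of the 14607 probe sets tested below, at -25.2 and -33.9, with the other 23 arrays between -11.6 and 9.63. In whole tissue, fewer cells that express a gene and less RNA per cell cannot be told apart.

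Promoter sequence was available for 7 of the 8 genes, all but Arc, whose promoter is not described here. It came as RefSeq windows of 300 bases (250 before to 50 after the start site, rat build GRCr8). There were 12 windows in all, 6 of them for Bdnf. The 3 windows below were taken only from genes that were higher in Con-Pf than in Con on average. Chosen so, they show no link between a motif and a rise. They hold the cAMP response element (CRE) TGACGTCA, which CREB binds after calcium entry, or the E-box CACGTG. Capitals mark these letters, and each sequence runs 5′ to 3′ on the strand of its gene.
Scg2, chr9:88256817-88257116, minus strand: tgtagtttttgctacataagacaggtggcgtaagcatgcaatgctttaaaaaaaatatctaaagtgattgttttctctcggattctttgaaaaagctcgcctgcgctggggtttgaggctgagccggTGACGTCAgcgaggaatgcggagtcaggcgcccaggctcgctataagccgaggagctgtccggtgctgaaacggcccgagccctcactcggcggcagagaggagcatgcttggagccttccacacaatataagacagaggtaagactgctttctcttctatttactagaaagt
Vgf, chr12:25276971-25277270, minus strand: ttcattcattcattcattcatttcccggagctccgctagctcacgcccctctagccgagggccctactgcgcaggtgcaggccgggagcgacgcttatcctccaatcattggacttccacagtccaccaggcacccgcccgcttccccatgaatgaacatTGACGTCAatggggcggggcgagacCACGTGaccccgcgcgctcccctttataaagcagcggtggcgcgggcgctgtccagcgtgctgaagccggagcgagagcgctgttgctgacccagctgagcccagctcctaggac
Ptgs2, chr13:64713813-64714112, plus strand: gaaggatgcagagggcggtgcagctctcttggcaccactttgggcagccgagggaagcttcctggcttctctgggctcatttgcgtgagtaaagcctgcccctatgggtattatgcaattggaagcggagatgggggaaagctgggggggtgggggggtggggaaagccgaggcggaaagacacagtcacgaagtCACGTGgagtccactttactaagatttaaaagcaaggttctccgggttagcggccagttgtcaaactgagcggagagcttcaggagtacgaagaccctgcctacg
The CRE began at base -123 from the start site of Scg2 and at base -90 of Vgf. All motifs were searched on both strands. The CRE was in 2 of the 12 windows, those of Scg2 and Vgf, against 1.83% of all 33469 windows. All shares given here are of windows, and Bdnf has 6 of the 12. Its shorter core TGACG, which any full CRE also holds, was found in Nptx2 and in 1 Bdnf window besides, against 21.2% of windows. The E-box was held by Vgf at -65, Ptgs2 at -55 and 1 Bdnf window, against 6.42%. The AP-1 site TGANTCA was in 1 Bdnf window (7.33% of all windows), and TATAAA was in Homer1, Vgf and 1 Bdnf window (14.2%). The EGR site GCGTGGGCG (0.544%) and the CArG box of serum response factor (1.64%) were in none of the 12 windows, which do not cover Arc. The Npas4 window held none of these motifs. A match describes letters in a window and does not show that a factor binds there.

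The comparison of Con-Pf with Con asks whether food restriction of the dam, before and during gestation, was accompanied by other striatal levels in the offspring. As the study reports, Con-Pf dams ate and also drank less than Con dams in the week before pregnancy. Arc, Ptgs2 and Scg2 were higher in Con-Pf, by 1.10, 0.33 and 0.24 on the log2 scale, or 2.14, 1.26 and 1.18 times. Against Nic, Arc and Ptgs2 were higher in Con-Pf, by 0.85 and 0.32. No gene of the 8 passed the test between Nic and Con. All tests were made with limma and called at an adjusted p under 0.05 (Benjamini-Hochberg), over the 14607 probe sets whose mean level was at or above the median. Of the 8 genes 7 were among these, and Bdnf, being dimmer, was not.

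Read against all 14607 probe sets, 3 of 7 genes called higher in Con-Pf than in Con compare with 1.00% called higher among them all, and none of the 7 was lower, against 0.260%. For Con-Pf against Nic, 2 of 7 were called higher against 0.171% of all probe sets, and none was lower, against 0.0137%. Between Nic and Con the share called was 0% in each direction. The 2 comparisons with Con-Pf use the same 10 Con-Pf arrays. By the thresholds of the study's methods, an unadjusted p under 0.01 together with a log2 difference of at least 0.5 in size, Arc and Npas4 passed in both comparisons with Con-Pf.

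**Figure D1:**
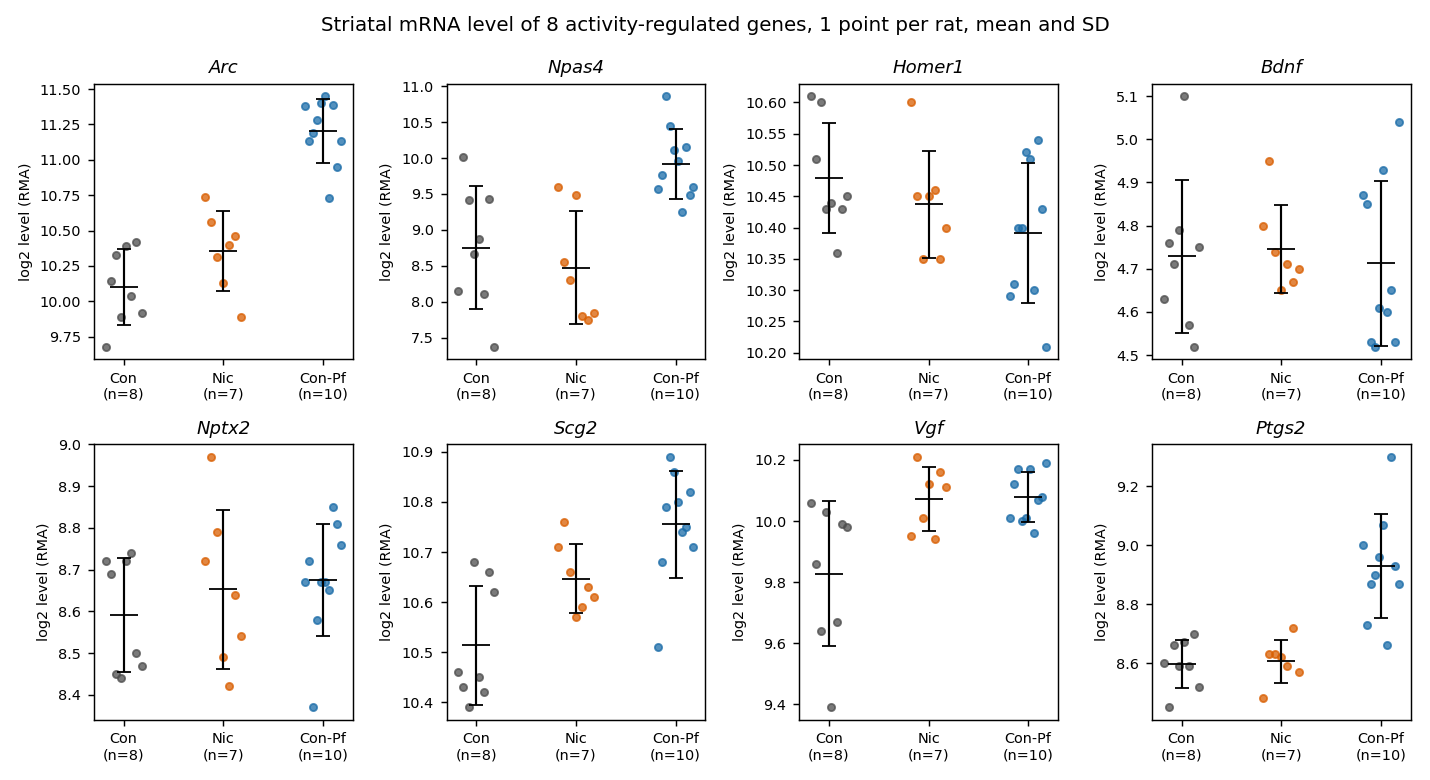
Log2 RMA level (y axis, a separate scale in each panel) of the 8 genes in Con (n = 8), Nic (n = 7) and Con-Pf (n = 10); each point is 1 rat, the long line the mean and the bars 1 SD. For Arc every Con-Pf rat lies above every Con rat, and for Npas4 the Con and Nic rats spread from 7.38 to 10.01 while the Con-Pf rats lie between 9.25 and 10.86.

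Npas4 encodes a neuronal transcription factor that calcium influx induces and that controls inhibitory synapses. Its log2 levels in Con were 7.38 at the lowest, 8.77 at the median and 10.01 at the highest. In Nic they ran from 7.75 through 8.30 to 9.60, and in Con-Pf from 9.25 through 9.86 to 10.86. The groups overlapped, yet no Con-Pf rat fell as low as the middle of Con or Nic: 4 of 10 Con-Pf rats lay above all Con rats and 7 of 10 above all Nic rats. The mean was 8.75 ± 0.86 in Con (SD, n = 8), 8.48 ± 0.78 in Nic (n = 7) and 9.92 ± 0.49 in Con-Pf (n = 10). The difference of 1.16 to Con (SE 0.306, 95% interval 0.54 to 1.79) was the third largest rise among the 14607 probe sets. That of 1.44 to Nic (SE 0.317, interval 0.79 to 2.10) was the largest. Neither passed the adjusted threshold, with adjusted p = 0.0534 and 0.0560. The spread between rats within a group, a residual SD of 0.705, was larger than that of 99.9% of the probe sets tested.

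These Npas4 values sat at the threshold, and single arrays moved them across it. The adjusted p for Con-Pf against Con was 0.0210 without Con 2, 0.0318 without Con 7 and 0.0418 without Nic 1, and 0.0466 with a stricter filter. Against Nic it was 0.0196 without Nic 1, 0.0288 without Nic 4, 0.0331 without Con 2, 0.0267 without Con 8, 0.0335 without Con-Pf 7 and 0.0302 with the 2 groups fitted alone. Over all alternatives it ran up to 0.247 against Con and 0.447 against Nic. The partners with which NPAS4 binds DNA, Arnt and Arnt2, were both kept, and their log2 differences lay between -0.07 and 0.05 in the 3 comparisons, none passing the test.

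Arc encodes a protein that gathers at active synapses and drives the removal of AMPA receptors. Its log2 levels in Con were 9.68 at the lowest, 10.09 at the median and 10.42 at the highest, in Nic 9.89, 10.40 and 10.74, and in Con-Pf 10.73, 11.23 and 11.45. Every Con-Pf rat lay above every Con rat, and 9 of 10 lay above every Nic rat, the exception being Con-Pf 7, which lay just below Nic 1. Con-Pf and Con without overlap, with Con-Pf higher, was seen for 0.233% of the probe sets tested, and Con-Pf and Nic without overlap for 0.0685%, with no gene of the 8 among the latter. The mean level was 10.10 ± 0.27 in Con (SD, n = 8), 10.36 ± 0.28 in Nic (n = 7) and 11.20 ± 0.23 in Con-Pf (n = 10). The difference to Con, 1.10 (SE 0.113, 95% interval 0.87 to 1.33), had an adjusted p of 4.66e-07 by limma, rank 9 by p and 5 by size of rise. The difference to Nic, 0.85 (SE 0.117, interval 0.61 to 1.09), had an adjusted p of 0.000501 and rank 2 by p. Against Con the call held in every alternative run, with adjusted p between 1.44e-07 and 0.00462. Against Nic it was lost only with the methods' t-test run with unequal variances, at an adjusted p of 0.0506.

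Nic was between the other groups for Arc. The difference of 0.25 from Nic to Con (SE 0.123, interval 0.00 to 0.51) had an adjusted p of 0.307, and 3 of 7 Nic rats lay above all Con rats. Of 11 genes whose proteins work with ARC, 9 were kept and none passed the test in any comparison. Stmn2, a microtubule regulator of growing neurites, had the smallest p among them in 2 comparisons, with a log2 difference of 0.09 for Con-Pf against Con (adjusted p = 0.245) and of 0.14 for Nic against Con (adjusted p = 0.268). The AMPA receptor subunit genes Gria1 and Gria2 differed by 0.00 and -0.05 between Con-Pf and Con.

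Homer1 encodes a scaffold that ties metabotropic glutamate receptors to their calcium stores, and its short activity-induced form loosens that scaffold. The sources used here do not say which form the probe set reads. Its log2 levels ran from 10.36 to 10.61 in Con (median 10.45), 10.35 to 10.60 in Nic (median 10.45) and 10.21 to 10.54 in Con-Pf (median 10.40). The 3 groups lay over one another, and the whole range over 25 rats was 0.40. Con-Pf differed from Con by -0.09 (SE 0.047, interval -0.18 to 0.01, adjusted p = 0.278) and from Nic by -0.05 (SE 0.049, interval -0.15 to 0.06, adjusted p = 0.999). The intervals thus excluded a rise of the size seen for Scg2 in the same rats. Of 10 scaffold genes 9 were kept, and none passed the test. Itpr1, the calcium channel of the endoplasmic reticulum, had the smallest p, with -0.15 for Con-Pf against Con (adjusted p = 0.125) and -0.19 for Nic against Con (adjusted p = 0.268). Grm5, the main receptor that HOMER1 holds, had -0.13 and -0.12 (adjusted p = 0.151 and 0.301).

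Bdnf encodes a neurotrophin that cortical afferents deliver to the striatum, where its own mRNA is scarce. Its mean log2 level of 4.73 was above that of only 17.2% of all probe sets, so that it was tested only in the fit without a filter, over 29214 probe sets. Levels ran from 4.52 to 5.10 in Con (median 4.73), 4.65 to 4.95 in Nic (median 4.71) and 4.52 to 5.04 in Con-Pf (median 4.63). The groups overlapped fully. Con-Pf differed from Con by -0.02 (SE 0.077, interval -0.17 to 0.14, adjusted p = 0.955) and from Nic by -0.03 (SE 0.080, interval -0.20 to 0.13, adjusted p = 1.00). At so low a level a change may not be detectable. Of 8 genes for BDNF receptors and processing 6 were kept, and none passed the test. Plat, the tissue plasminogen activator that helps to cut proBDNF, had 0.19 for Con-Pf against Con (adjusted p = 0.116) and 0.17 against Nic (adjusted p = 0.933). Ntrk2, the receptor TrkB, had -0.09 for Con-Pf against Con (adjusted p = 0.234).

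Nptx2 encodes a secreted pentraxin that clusters AMPA receptors. Its log2 levels ran from 8.44 to 8.74 in Con (median 8.59), 8.42 to 8.97 in Nic (median 8.64) and 8.37 to 8.85 in Con-Pf (median 8.67). The highest and the lowest of all 25 rats were Nic 2 and Con-Pf 3, and the groups overlapped. Con-Pf differed from Con by 0.08 (SE 0.070, interval -0.06 to 0.23, adjusted p = 0.482) and from Nic by 0.02 (SE 0.073, interval -0.13 to 0.17). Its 4 partners were all kept, and none passed the test. Against Nic all 4 were lower in Con-Pf, with a median of -0.15 beside -0.01 for all probe sets tested: Nptxr, the pentraxin receptor, had -0.23 (adjusted p = 0.874) and Nptx1 -0.26 (adjusted p = 0.999). Slc17a7 and the other markers of cortical neurons were lower in the same direction, and their part in these values was not tested.

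Scg2 encodes secretogranin II, a granin of dense-core vesicles from which the peptide secretoneurin is cut. In Con its log2 levels were 10.39 at the lowest, 10.45 at the median and 10.68 at the highest, in Nic 10.57, 10.63 and 10.76, and in Con-Pf 10.51, 10.77 and 10.89. Apart from Con-Pf 1, at 10.51, every Con-Pf rat lay above every Con rat. The mean was 10.51 ± 0.12 in Con (SD, n = 8), 10.65 ± 0.07 in Nic (n = 7) and 10.76 ± 0.11 in Con-Pf (n = 10). Con-Pf rose over Con by 0.24 (SE 0.049, interval 0.14 to 0.34, adjusted p = 0.00891). Nic lay between, 0.13 above Con (SE 0.054, adjusted p = 0.276), with Con-Pf 0.11 above Nic (SE 0.051, interval 0.01 to 0.22, adjusted p = 0.999). The call against Con was lost without Con 3 and Con 5 (adjusted p = 0.0699), with Con-Pf 9 and 10 counted as Con (0.266), with the methods' t-test run with unequal (0.0806) or pooled variance (0.0522), and with a replicate block (0.0686).

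Vgf encodes a neurosecretory protein that gives rise to several peptides. In Con its log2 levels were 9.39 at the lowest, 9.92 at the median and 10.06 at the highest, in Nic 9.94, 10.11 and 10.21, and in Con-Pf 9.96, 10.08 and 10.19. The lowest rats were Con 5, Con 3 and Con 6, at 9.39, 9.64 and 9.67, while Nic and Con-Pf covered the same narrow range. The mean was 9.83 ± 0.24 in Con (SD, n = 8), 10.07 ± 0.10 in Nic (n = 7) and 10.08 ± 0.08 in Con-Pf (n = 10). Con-Pf was 0.25 above Con (SE 0.070, interval 0.11 to 0.39, adjusted p = 0.0713) and Nic 0.24 above Con (SE 0.076, interval 0.09 to 0.40, adjusted p = 0.268), neither passing the test. Con-Pf and Nic differed by 0.01 (interval -0.14 to 0.16). Without Con 3 and Con 5 the difference of Con-Pf to Con was 0.15 (adjusted p = 0.434) and that of Nic to Con 0.14 (adjusted p = 0.953). Without Con 4, Con 7 or Con 8 alone the former passed, at an adjusted p of 0.0431, 0.0397 and 0.0489.

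Of 11 other genes of the secretory granule 9 were kept, and none passed the test. For Con-Pf against Con their median difference was -0.02, beside 0.02 for all probe sets tested. Chga, chromogranin A, had 0.18 (adjusted p = 0.0534), Scg5, the chaperone of a prohormone convertase, 0.11 (adjusted p = 0.180), and Pcsk1n, a convertase inhibitor, 0.16 (adjusted p = 0.210). For Nic against Con, Pcsk1n had 0.18 and Scg5 0.10 (adjusted p = 0.292 and 0.333).

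Ptgs2 had log2 levels of 8.45 at the lowest, 8.60 at the median and 8.70 at the highest in Con, and of 8.48, 8.62 and 8.72 in Nic. In Con-Pf they were 8.66, 8.92 and 9.30. Con and Nic lay over one another, and 9 of 10 Con-Pf rats lay above all rats of either group, with Con-Pf 7 the exception and Con-Pf 8 the highest. The mean was 8.60 ± 0.08 in Con (SD, n = 8), 8.61 ± 0.07 in Nic (n = 7) and 8.93 ± 0.18 in Con-Pf (n = 10). Con-Pf rose over Con by 0.33 (SE 0.060, interval 0.21 to 0.45, adjusted p = 0.00227) and over Nic by 0.32 (SE 0.062, interval 0.20 to 0.45, adjusted p = 0.0148). Nic and Con differed by 0.01 (interval -0.13 to 0.14). The call against Con was lost when Con-Pf 9 and 10 were counted as Con, against their titles (adjusted p = 0.133). The call against Nic was lost so too (0.163), with the methods' t-test run with unequal (0.129) or pooled variance (0.155), with the 2 groups fitted alone (0.0570), with a replicate block (0.131) and with the level of the cortical and thalamic markers as a covariate (0.0699), though the difference then was 0.36.

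Most of the prostaglandin pathway lay below the filter, with 4 of 11 genes kept and none passing the test. Ptgds, the prostaglandin D2 synthase of meninges and oligodendrocytes, had 0.34 for Con-Pf against Con (adjusted p = 0.0534) and 0.16 against Nic (adjusted p = 0.999). Ptges3 and Ptges2, which are prostaglandin E synthases, had 0.07 each for Con-Pf against Con (adjusted p = 0.566 and 0.365). Ptgs1, the constitutive cyclooxygenase, had 0.02.

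**Figure D2:**
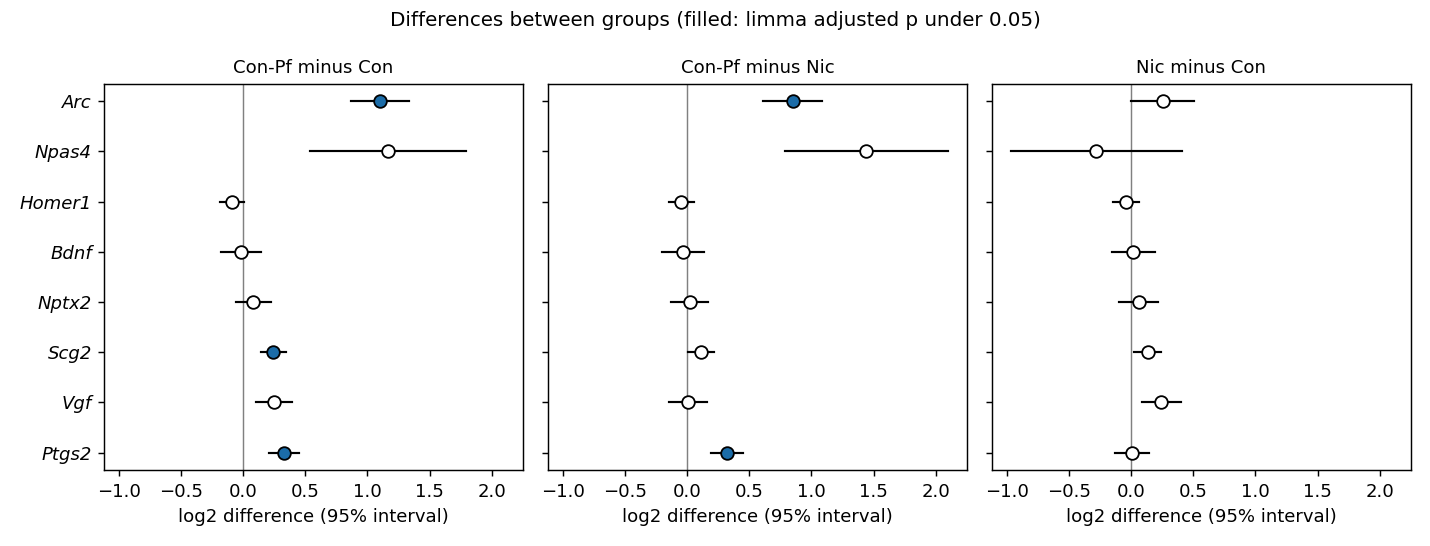
Log2 difference between groups (x axis) for each gene in the 3 comparisons, as the limma estimate with its 95% interval; filled points passed the adjusted p of 0.05. Arc, Scg2 and Ptgs2 are filled for Con-Pf minus Con, Arc and Ptgs2 for Con-Pf minus Nic and none for Nic minus Con, and Npas4 has the widest intervals.

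Nic dams took nicotine and, as the study reports, also ate and drank less than Con dams. The comparison of Nic with Con thus does not separate nicotine from lower intake. In it limma called 0 of the 7 genes tested. At an unadjusted p under 0.05, 3 passed by limma (Arc, Scg2 and Vgf) and 2 by the methods' t-test. Many probe sets passed that threshold: by limma, 2363 of 14607 had a p at or below that of Arc (p = 0.0497). Npas4 had -0.28 (SE 0.333, interval -0.96 to 0.41), Homer1 -0.04 (interval -0.15 to 0.07) and Nptx2 0.06 (interval -0.10 to 0.22). Bdnf, in the fit without a filter, had 0.02 (interval -0.16 to 0.19). The intervals for Arc and Npas4 do not exclude differences of 0.5, while those of the other genes kept by the filter do. For Bdnf the interval cannot exclude such a difference, since at its low level a change may not be detectable.

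**Figure D3:**
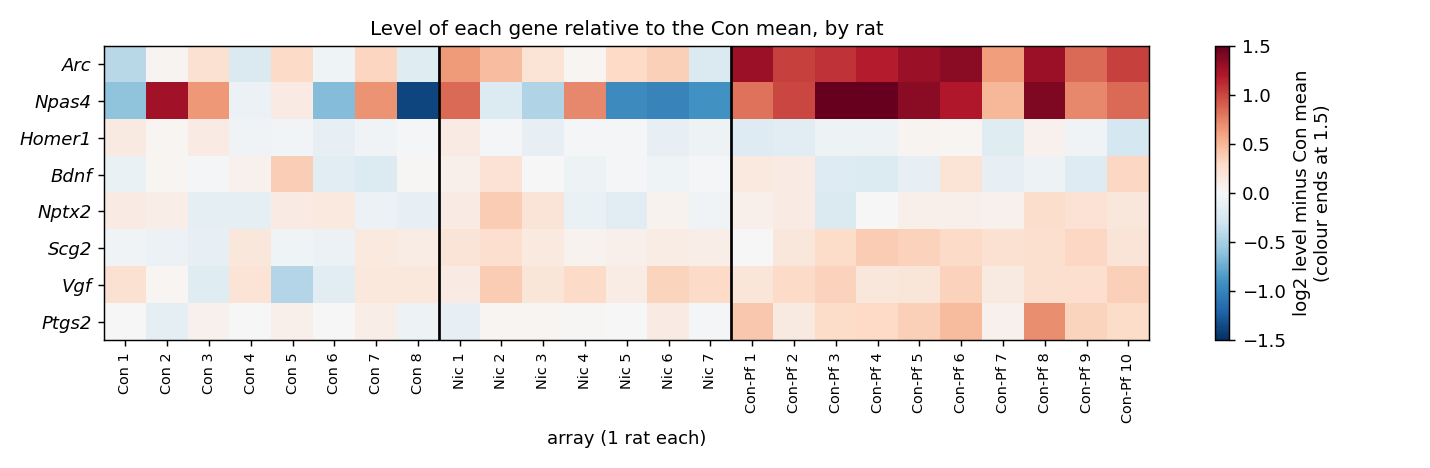
Log2 level of each gene (rows) on each of the 25 arrays (columns, 1 rat each, black lines between Con, Nic and Con-Pf), as the difference from the Con mean (red higher, blue lower). Arc is above the Con mean on all 10 Con-Pf arrays, Npas4 varies in both directions in Con and Nic, and Homer1, Bdnf and Nptx2 are pale throughout.

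Rats differed in which genes were high. Of the 10 arrays with the highest level, Con-Pf held 9 for Arc, 9 for Ptgs2, 8 for Npas4, 8 for Scg2 and 6 for Vgf, against 4 for Bdnf, 4 for Nptx2 and 3 for Homer1. Arc was highest on Con-Pf 6 and lowest on Con 1, and Npas4 was highest on Con-Pf 3 and lowest on Con 8. Con-Pf 7 was the lowest Con-Pf rat for Arc, Npas4, Vgf and Ptgs2. The range over all 25 rats was 3.48 for Npas4, 1.77 for Arc and 0.85 for Ptgs2.

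With the group means taken out, Pearson's r over the 25 arrays was 0.49 between Arc and Npas4, 0.45 between Arc and Ptgs2, 0.41 between Npas4 and Homer1 and 0.37 between Scg2 and Vgf. It was 0.05 between Npas4 and Ptgs2 and -0.33 between Arc and Vgf, which became -0.12 without Con 3 and Con 5. These values describe arrays that share their normalisation and dissection.

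The genes whose levels followed Arc most closely within groups were Nr4a1 (r = 0.85), Junb (r = 0.85) and Slc25a25 (r = 0.82), among 9605 other probe sets over 25 arrays. Nr4a1 and Junb are themselves activity-regulated transcription factors. Without Con 3 and Con 5 they were Junb (r = 0.89), Nr4a1 (r = 0.84) and Fos (r = 0.82). For the other genes these 2 arrays changed 1 or more of the 3 names. Npas4 had weaker likenesses, with Prkar2b at 0.58, Dusp1, a MAP kinase phosphatase of the early response, at 0.58 and Pcdhb5 at 0.55, which without these arrays were Rpl24 (0.61), Hbegf (0.58) and Prkar2b (0.57). Ptgs2 was most like Map4k3 (0.72), Coil (0.72) and Mus81 (0.70), and without them Coil (0.78), Cited2 (0.75) and Map4k3 (0.74). Scg2 was most like Plrg1 (0.81), Rbm4 (0.77) and Daglb (0.74), and without them Plrg1 (0.81), Tpi1 (0.75) and Daglb (0.75). Vgf followed Scamp3 (0.86), Ly6e (0.86) and Blcap (0.83), but without Con 3 and Con 5 it followed Porcn (0.80), Sst, the neuropeptide somatostatin (0.76), and Pou3f1 (0.73). Homer1 followed Ipo7 (0.81), Calr (0.80) and Cop1 (0.79), none of which was among the first 3 without them (Prkacb 0.87, Snx25 0.83 and Mtpn 0.83). Nptx2 followed Ncald (0.68), Lpar1 (0.67) and Casr (0.66), and without them Casr (0.81), Nrg1 (0.71) and Tsc22d2 (0.69).

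A pair of further lists held other genes of the activity-regulated programme. Of 13 activity-regulated transcription factors 11 were kept. Against Con 9 of them rose in Con-Pf, where 1.00% of all probe sets tested did, and against Nic 6 rose, where 0.171% did. None fell in either comparison (0.260% and 0.0137% of all), and none passed between Nic and Con. Their median differences were 0.78, 0.57 and 0.16, beside 0.02, -0.01 and 0.02 for all probe sets tested. Nr4a1, an orphan nuclear receptor, rose by 1.44 over Con and 0.97 over Nic, Egr2 by 1.22 and 0.92, and Egr1 by 0.55 and 0.35. Nr4a2, of the same family as Nr4a1, was lower in Con-Pf without passing the test. It had -0.41 against Con and -0.36 against Nic (adjusted p = 0.204 and 0.999). The study named several of these genes from the same rats, so their direction is not independent evidence.

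Of 23 other activity-regulated effectors 18 were kept. In Con-Pf against Con 3 of 18 rose and none fell, beside 1.00% and 0.260% of all probe sets tested. They were Gpr3, a receptor that raises cAMP, by 0.70 (adjusted p = 4.16e-07), Rgs2, which shortens G-protein signals, by 0.61 (adjusted p = 2.06e-07), and Sik1, a kinase that CREB induces, by 0.34 (adjusted p = 9.45e-05). Against Nic 2 of 18 rose, beside 0.171% of all: Gpr3 by 0.47 and Rgs2 by 0.40 (adjusted p = 0.00100 and 0.000501). Sik1 had 0.22 (adjusted p = 0.0803). The remaining 15 did not pass, among them Plk2 with 0.04 and Syt4 with 0.05 against Con. The median of the 18 was 0.04 against Con and 0.02 against Nic, beside 0.02 and -0.01 for all probe sets tested. None passed between Nic and Con, where Rgs2 had 0.21, Timp1 0.23 and Gpr3 0.23 (adjusted p = 0.268 each).

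**Figure D4:**
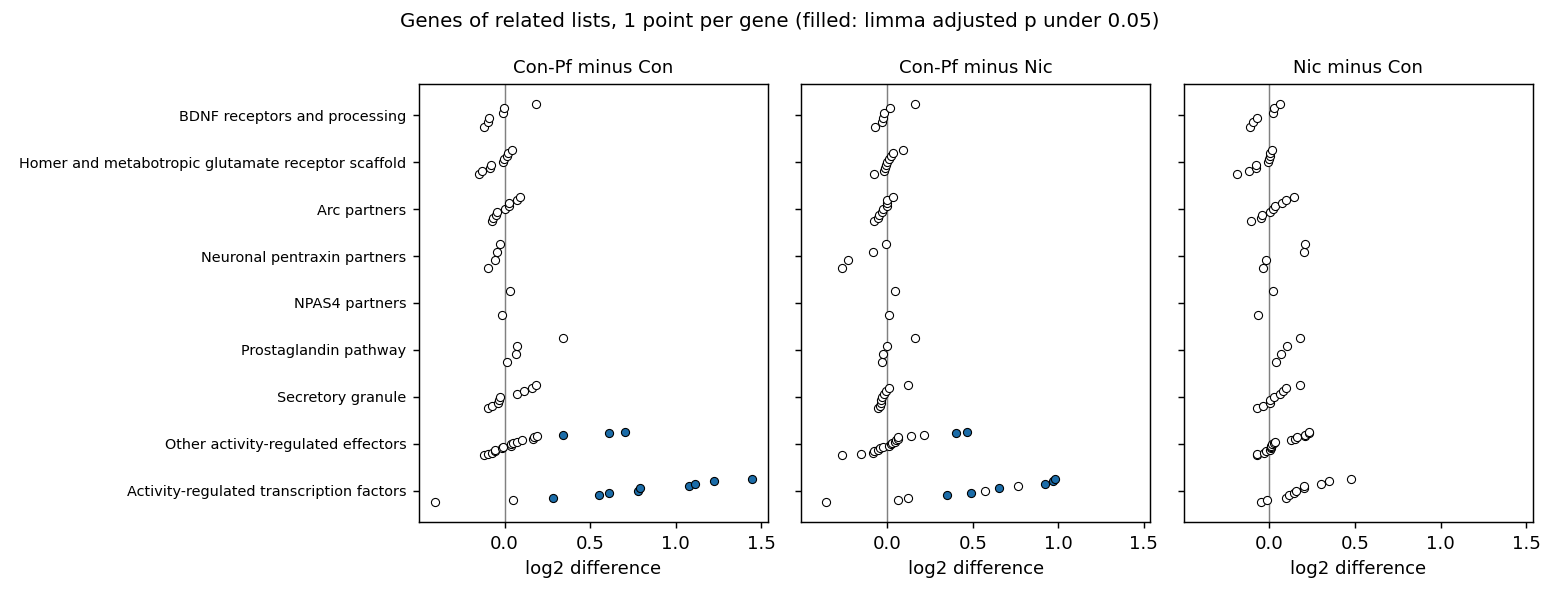
Log2 difference (x axis) of each kept gene of 9 related lists (y axis) in the 3 comparisons, 1 point per gene; filled points passed the limma adjusted p of 0.05. Filled points appear in 2 lists, the activity-regulated transcription factors and the other activity-regulated effectors, and in the 2 comparisons with Con-Pf.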

How the data were processed

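The authors hybridised 1 array per rat and deposited log2 values made with RMA, that is background correction, quantile normalisation across arrays and summary to 1 value per probe set; tools listed in the submitters' processing notes are RMA and, at version 1.1, Affymetrix Expression Console. They removed 2 Con arrays and 1 Nic array, and all 25 deposited columns were used. Groups came from the sample titles. Levels of different probe sets were not compared.

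Probe sets with a mean at or above the median (quantile 0.5, log2 level 6.97) were kept, 14607 of 29214. Of the latter 15310 carry 1 symbol, 323 several and 13581 none. limma 3.58.1 in R 4.3.3 fitted each probe set over the 3 groups in 1 linear model (eBayes), with Benjamini-Hochberg adjustment over all those kept. Steps were tested on simulated data. Array correlations lay between 0.967 and 0.997. The signal of single probes was not used here, and the number of rats limits precision.

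The 8 genes, the lists and the tests were chosen with earlier results of these data known. All 8 genes, up to 3 genes per list with the smallest p and the 3 most like each gene by within-group correlation were named. Gria1, Gria2, Nr4a2, Plk2 and Syt4 were outside those 3 and were added after their values were seen, as were Ntrk2 and Ptgs1. Sort1, which had a smaller p than Ntrk2 for Con-Pf against Con, was left out above. Of 22 same-numbered pairs of rats 10 deviated together (r over 0.1), not every one, and no label ties a number to a litter or day, so the replicate number entered only as an alternative. Alternatives were Student's t-test of the methods with unequal variances, the form the study ran, and with pooled variance, the 2 compared groups alone, trend and robust moderation, no filter, a stricter filter (quantile 0.75), quantile normalisation once more, centring on array medians, Con-Pf 9 and 10 left out or counted as Con, Con 3 and Con 5 left out, a replicate block and each array left out. A covariate for cortical and thalamic markers was chosen after seeing the data. Figures were drawn with matplotlib 3.10.9 in Python 3.11.15.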

Additional observations from a re-analysis of the deposited data

Results flagged for a closer look

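The spread of each of the 8 genes was checked within each group for a single rat far from the rest, by the gap to its neighbour as a share of the group's range. Of 24 checks 2 passed the 95% critical value for their group size, a level that chance alone passes at times. For Homer1 in Nic the highest rat, Nic 1 at 10.60, had a ratio of 0.583 (critical value 0.568, n = 7). For Bdnf in Con the highest rat, Con 5 at 5.10, had a ratio of 0.537 (critical value 0.526, n = 8). Neither gene passed the test in any comparison.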

How the results depend on the processing

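Arc against Con was called in every alternative run. The count of called genes in Con-Pf against Con was 3 of 7. It was 1 when Con-Pf 9 and 10, which the study tested as Con-Pf, were treated as Con rats. It was 2 by Student's t-test with unequal or with pooled variance, and 2 without Con 3 and Con 5. With single arrays left out it lay between 3 and 5 (5 without Con 7, when Npas4 and Vgf passed as well). In Con-Pf against Nic the count of 2 was 0 by Student's t-test with unequal variances. It was 1 with pooled variance, the stricter filter (under which Ptgs2, Nptx2 and Bdnf have no value), Con-Pf 9 and 10 treated as Con, the replicate block and the marker covariate. Leaving out single arrays gave 2 to 3 there and 0 throughout for Nic against Con, and no called gene lost its call. Same-numbered rats correlated between -0.36 and 0.34 in their deviations, with 10 of 22 pairs over 0.1. The replicate block gave 2 called genes against Con, 1 against Nic and 0 between Nic and Con.

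Log2 differences that changed sign were all uncalled and near 0. Bdnf in Con-Pf against Con became 0.00843 with quantile normalisation once more, 0.0432 without Con 3 and Con 5 and 0.0281 with the covariate (single arrays left out, -0.0521 to 0.0370). With the covariate Bdnf became 0.0716 against Nic (single arrays, -0.0694 to 0.00146) and -0.0435 for Nic against Con (-0.0168 to 0.0697). Nptx2 against Nic became -0.00683 with Con-Pf 9 and 10 left out or treated as Con and -0.0125 with the replicate block (single arrays, -0.0174 to 0.0750). Vgf against Nic became -0.00886 with centred arrays, -0.00759 with Con-Pf 9 and 10 left out or treated as Con and -0.0187 with the replicate block (single arrays, -0.0155 to 0.0293). Ptgs2 for Nic against Con became -0.0169 with quantile normalisation once more, -0.0526 with Con-Pf 9 and 10 treated as Con and -0.0132 with the covariate (single arrays, -0.0142 to 0.0279). The cause of these changes was not tested.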
